A study of Mus musculus with 5 samples.

Results

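The circadian clock genes comprised the 10 rows of the deposited count table with the symbols Arntl, Clock, Npas2, Nr1d1, Nr1d2, Dbp, Tef, Per1, Per2 and Per3, out of 24527 genes in all, and they were chosen by name. Bulk RNA-seq had been done on prostate tumor samples of TripleTg mice, 3 castrated and 2 intact. TripleTg mice carry the alleles hHGFtg, H11 hMET/+, Ctnnb1 L(Ex3)/+ and PB Cre4, so that human HGF is expressed ubiquitously, while human MET and stabilized β-catenin are switched on in prostate epithelium through Cre driven by the probasin promoter. Castration was at 4 months and analysis of both groups at 8 months of age, and the 2 groups share genotype and a mixed C57BL/6 and C3H SCID background. The castrated libraries held 28015507 (replicate 1), 18951782 (replicate 2) and 20492061 (replicate 3) counts, and the intact libraries 21560355 (replicate 1) and 22853501 (replicate 2). The mice were housed under a light/dark cycle, and the time of day at which each tissue was taken is not given in the sources used here.

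The mammalian clock is a feedback loop of transcription that runs in most cells of the body. BMAL1, encoded by Arntl, pairs with CLOCK or its relative NPAS2 and binds E-box sequences to switch on the Period and Cryptochrome genes, whose proteins later repress that same pair. BMAL1 and CLOCK also switch on the nuclear receptors REV-ERBα (Nr1d1) and REV-ERBβ (Nr1d2), which repress Arntl through ROR elements, and the PAR bZIP factors DBP and TEF, which act through D-boxes. As a result, Arntl and Npas2 are known to peak in most tissues at about the time of day when Nr1d1, Dbp and Per transcripts are low, and the reverse, while Clock swings less.

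The DNA letters that link these genes were looked for in the promoter windows of RefSeq (build GRCm38.p6), which run from 250 bases before to 50 bases after each annotated start. A window was found for 9 of the 10 genes by symbol, Per2 being the other. Each line below shows at most 30 bases, 5′ to 3′ on the strand of the gene, and the capitals mark the matched element, on either strand. The sequences are shown because their capitals match the letters that the products of some of these genes are known to bind.

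Per1, E-box, chr11:69098771-69098800 (plus strand), 166 bases before the start: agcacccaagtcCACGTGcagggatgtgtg

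Tef, E-box, chr15:81802534-81802563 (plus strand), 127 bases before the first start: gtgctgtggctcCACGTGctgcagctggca

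Tef, E-box, chr15:81811264-81811293 (plus strand), 138 bases before the second start: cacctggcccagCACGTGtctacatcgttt

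Nr1d1, E-prime box read on the opposite strand, chr11:98775388-98775417 (minus strand), 28 bases before the start: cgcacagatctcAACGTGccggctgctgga

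Per3, D-box, chr4:151044852-151044881 (minus strand), 205 bases before the start: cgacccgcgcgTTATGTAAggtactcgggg

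Per3, D-box, chr4:151044805-151044834 (minus strand), 158 bases before the start: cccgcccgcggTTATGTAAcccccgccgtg

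Arntl, ROR element, chr7:113207528-113207557 (plus strand), 28 bases into the transcript from its second start: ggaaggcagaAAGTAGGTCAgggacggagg

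The E-box letters CACGTG were present in a window of 8.09% of the 27025 genes with a window, some of which have several, the E-prime box letters CACGTT in 5.44%, the D-box letters TTATGTAA, TTACGTAA or TTATATAA in 1.86%, and the ROR element letters AGGTCA directly preceded by AANT in 0.259%. Both strands were searched, and an E-box and an E-prime box cannot match at the same position. Of the 9 genes with a window, 2 held an E-box, 1 an E-prime box, 1 a D-box and 1 a ROR element. No window of the 9 held the cAMP response element TGACGTCA, which 2.03% of all genes with a window hold. A match is a description of letters and was not tested for binding.

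The libraries did not all match the label of prostate equally, and intact replicate 2 stood apart in prostate genes. Epithelial markers were abundant in every library, with summed levels of Krt8, Krt18, Epcam, Cdh1, Krt5, Krt14 and Trp63 of 3257, 3038 and 3945 CPM in castrated replicates 1, 2 and 3 and 4527 and 3287 CPM in intact replicates 1 and 2. The basal cell members of this list were lowest in intact replicate 1 and highest in intact replicate 2, with Krt5 at 28.9 and 405 CPM, Krt14 at 14.3 and 139 CPM and Trp63 at 6.09 and 101 CPM. Levels in CPM are counts relative to the library total after trimmed-mean (TMM) scaling. Tgm4, which encodes a secreted transglutaminase of the prostate, was at 1347 CPM in intact replicate 2 and at or below 0.419 CPM in the other 4 libraries. Msmb, a secretory product of prostate epithelium, had no count in any library, and Pbsn, the gene of the probasin promoter, was at 5.21 CPM in intact replicate 2 and at or below 0.454 CPM in the others. The log2 fold changes of the 10 clock genes are therefore given below also without intact replicate 2.

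Differences were tested in edgeR by quasi-likelihood over 14612 genes, those exceeding 1 CPM in 2 or more samples, a filter that all 10 clock genes passed. SE below is the standard error of a log2 fold change. A gene counted as called at an adjusted p under 0.05 (Benjamini-Hochberg) and an absolute log2 fold change above 1. None of the clock genes was called, and 0% of all genes tested were called. At an unadjusted p under 0.05, 2 of the 10 clock genes differed, Nr1d1 and Dbp, both higher in castrated samples, where 14.2% of all genes tested differed in either direction (8.29% higher, 5.93% lower). None of the 10 was among the 989 genes (6.77%) that DESeq2 called or the 369 (2.53%) called by edgeR's likelihood ratio test, and each of these tests counted 3 of them at an unadjusted p under 0.05, beside 20.7% and 14.9% of all genes. Single libraries decided the count of 2, which became 0 without castrated replicate 3 (6.53% of all genes in the same fit), 0 without intact replicate 2 (13.7%), 1, Clock, lower, without castrated replicate 2 (7.02%) and 4, Nr1d1, Dbp, Tef and Per2, all higher, without intact replicate 1 (22% of all genes). In 5 of the 10, Nr1d1, Nr1d2, Dbp, Tef and Per3, every castrated sample was above both intact samples, an arrangement held by 17% of all genes tested. In Clock alone among the 10, every castrated sample was below both intact samples, as in 16.1% of all genes tested. A log2 fold change above 0 was found for 7 of the 10 clock genes and for 47.9% of all genes tested. The median log2 fold change was 0.66 over the 10 clock genes and -0.03 over all genes tested, and over the 10 it ranged from 0.41 without castrated replicate 3 to 0.94 without castrated replicate 1. In bulk tissue, fewer cells of a type and less RNA per cell cannot be told apart.

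**Figure D1:**
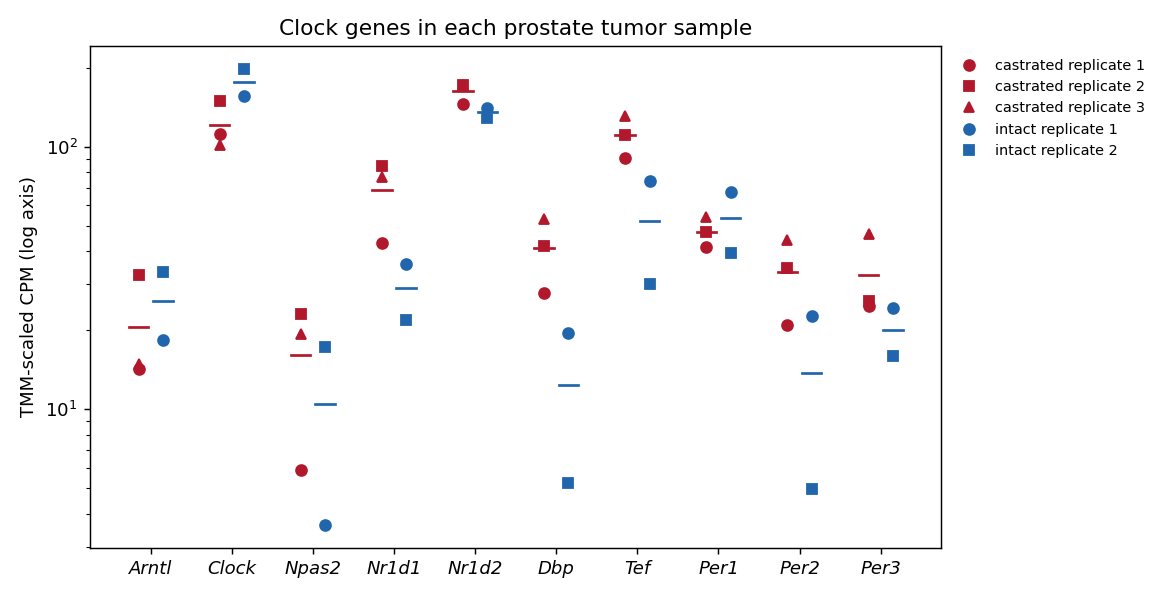
TMM-scaled CPM on a log axis of the 10 clock genes in each sample, with castrated samples in red, intact samples in blue, replicates by symbol and a bar at each group mean. Intact replicate 2 (blue squares) was the lowest sample for the 7 genes from Nr1d1 to Per3 and the highest for Arntl and Clock.

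The activators were described first. Clock, which encodes the usual partner of BMAL1 (chromosome 5 from 76209868 to 76304792, mm10), was at 112, 150 and 101 CPM in castrated replicates 1, 2 and 3 and at 156 and 199 CPM in intact replicates 1 and 2. The groups did not overlap, though castrated replicate 2 lay close under intact replicate 1. Its castrated mean was 121 ± 25.8 CPM (SD, n = 3) and its intact mean 178 ± 30.1 CPM (SD, n = 2), a log2 fold change of -0.55 (SE 0.25, edgeR adjusted p = 0.3902), or -0.41 without intact replicate 2. Arntl (chromosome 7 from 113207465 to 113314126) was at 14.3, 32.4 and 14.9 CPM in the castrated and at 18.5 and 33.4 CPM in the intact samples. Castrated replicate 2 and intact replicate 2 were both high, the other 3 samples were low, and the groups overlapped. The log2 fold change of Arntl was -0.34 (SE 0.49, edgeR adjusted p = 0.780), and 0.11 without intact replicate 2. Npas2, which encodes the alternative partner of BMAL1 (chromosome 1 from 39194272 to 39363240), was at 5.86, 23.2 and 19.4 CPM in the castrated and at 3.63 and 17.3 CPM in the intact samples. Here replicate 1 of both groups was low and the groups overlapped. Its log2 fold change was 0.63 (SE 0.87, edgeR adjusted p = 0.771), which became 2.11 without intact replicate 2 and -0.08 without intact replicate 1.

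Both REV-ERB genes were higher in every castrated sample than in either intact sample. Nr1d1 (chromosome 11 from 98767932 to 98775377) was at 43.2, 85.0 and 77.1 CPM in castrated replicates 1, 2 and 3 and at 35.9 and 22.0 CPM in intact replicates 1 and 2. Castrated replicates 2 and 3 were well above the other samples, and castrated replicate 1 was nearer to intact replicate 1 than to them. The means were 68.4 ± 22.2 CPM (SD, n = 3) and 28.9 ± 9.83 CPM (SD, n = 2), a fold of 2.36, or 1.24 on the log2 scale (SE 0.40, edgeR adjusted p = 0.328). The log2 fold change was 0.89 without intact replicate 2. The exons of Nr1d1 share 263 of their 3077 bases with Thra, a thyroid hormone receptor gene on the opposite strand, and the strand setting of the counting is not given in the sources used here, so the counts of either gene may hold reads of the other. Thra had 1565, 1239 and 1368 counts in the castrated and 794 and 1159 in the intact samples, with a log2 fold change of 0.48 (edgeR adjusted p = 0.441). Nr1d2 (chromosome 14 from 18204056 to 18239106) was at 146, 172 and 173 CPM in the castrated and at 141 and 130 CPM in the intact samples. The groups were separated by only a few CPM, between castrated replicate 1 and intact replicate 1, and the log2 fold change was 0.27 (SE 0.19, edgeR adjusted p = 0.549), or 0.17 without intact replicate 2. Nr1d2 varied least of the 10 genes across the 5 samples, with a ratio of the highest to the lowest sample of 1.33.

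Both PAR bZIP genes were higher in every castrated sample than in either intact sample, and Dbp had the largest log2 fold change of the 10 with all samples in the fit, while without intact replicate 2 that of Npas2 was larger. Dbp (chromosome 7 from 45705247 to 45710203) was at 27.8, 42.0 and 53.3 CPM in castrated replicates 1, 2 and 3 and at 19.5 and 5.25 CPM in intact replicates 1 and 2. All castrated samples were above the intact ones, and intact replicate 2 was far below the rest. The means were 41.0 ± 12.7 CPM (SD, n = 3) and 12.4 ± 10.1 CPM (SD, n = 2), a fold of 3.32, with a log2 fold change of 1.73 (SE 0.64, edgeR adjusted p = 0.340). For Dbp the log2 fold change was 1.03 when intact replicate 2 was left out and 2.98 when intact replicate 1 was. Dbp had the widest span of the 10, with 10.1 times as many CPM in castrated replicate 3 as in intact replicate 2. Its exons share 539 of 2993 bases with Sphk2, a sphingosine kinase gene on the opposite strand, which had a log2 fold change of 0.22 (edgeR adjusted p = 0.758). Tef (chromosome 15 from 81802673 to 81826863) was at 90.7, 111 and 131 CPM in the castrated and at 74.3 and 30.1 CPM in the intact samples. Again the groups did not overlap and intact replicate 2 was the lowest. The log2 fold change of Tef was 1.09 (SE 0.44, edgeR adjusted p = 0.355), and 0.54 without intact replicate 2.

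The 3 Period genes, which encode the repressors that bind the BMAL1 pair together with the Cryptochromes, had log2 fold changes of both signs. Per1 (chromosome 11 from 69098949 to 69109957) was at 41.6, 47.4 and 53.9 CPM in castrated replicates 1, 2 and 3 and at 67.6 and 39.6 CPM in intact replicates 1 and 2. The intact samples lay on either side of all castrated samples, and the log2 fold change was -0.17 (SE 0.29, edgeR adjusted p = 0.819), turning to 0.0005 when log2(TPM + 1) was tested with limma. It was -0.55 without intact replicate 2 and 0.29 without intact replicate 1. Per2 (chromosome 1 from 91415982 to 91459328) was at 20.9, 34.7 and 44.3 CPM in the castrated and at 22.6 and 4.97 CPM in the intact samples. Intact replicate 1 lay just above castrated replicate 1, so the groups overlapped, and intact replicate 2 was far below all others. Its log2 fold change of 1.27 (SE 0.72, edgeR adjusted p = 0.461) became 0.51 without intact replicate 2 and 2.76 without intact replicate 1. Per3 (chromosome 4 from 151003655 to 151044665) was at 24.9, 25.8 and 46.7 CPM in the castrated and at 24.3 and 15.9 CPM in the intact samples. Castrated replicate 3 stood above the rest, castrated replicate 1 was within 1 CPM of intact replicate 1, and the log2 fold change was 0.69 (SE 0.40, edgeR adjusted p = 0.472), or 0.37 without intact replicate 2.

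**Figure D2:**
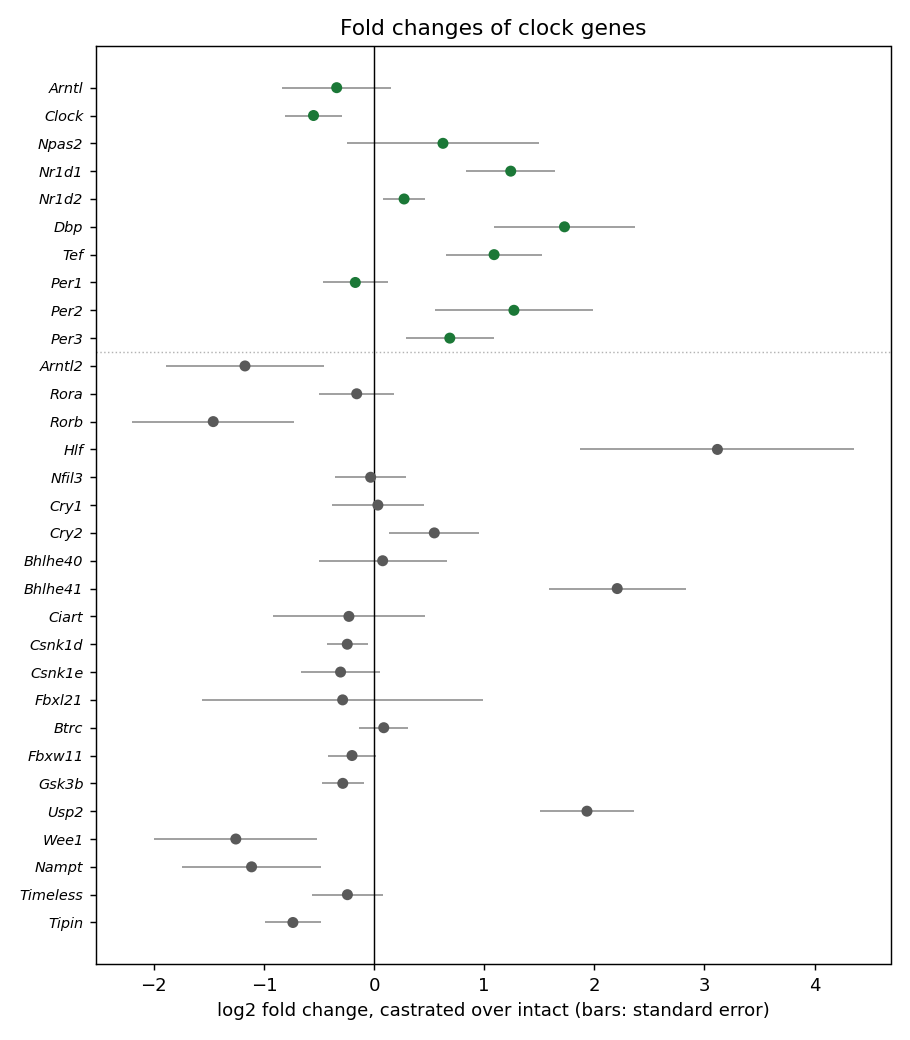
Log2 fold change of castrated over intact samples (x axis) with its standard error as a bar, for the 10 clock genes in green above the dotted line and 21 other clock pathway genes in gray below it. Hlf, Bhlhe41, Usp2 and Dbp lie farthest to the right, and none of the 31 had an adjusted p under 0.05 in edgeR's quasi-likelihood test, while DESeq2 called Hlf, Bhlhe41 and Usp2.

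The order of the samples was shared by several of the genes. From high to low, Dbp, Tef, Nr1d2 and Per3 all ran through castrated replicates 3, 2 and 1 and then intact replicates 1 and 2. This order was held by 2.63% of all genes tested. It was taken from Dbp itself, so that share is given as a description and not as a test. Nr1d1 differed from it only in the exchange of castrated replicates 2 and 3, and Per2 only in the exchange of castrated replicate 1 and intact replicate 1. Intact replicate 2 was the lowest sample for 7 of the 7 REV-ERB, PAR bZIP and Period genes, against 27.5% of all genes tested. It was the highest sample for 2 of the 10 clock genes, Arntl and Clock, against 31.3% of all genes tested. For Npas2, the remaining activator, castrated replicates 2 and 3 were higher than intact replicate 2. Within the intact group, replicate 1 held 3.71 times the Dbp, 4.55 times the Per2 and 2.47 times the Tef of replicate 2, but only 0.552 times its Arntl. The median of this ratio was 0.951 over the 14549 genes tested with a count in intact replicate 2, and 7.46% of all genes tested had at least the ratio of Dbp. Among castrated samples the highest was 1.91 times the lowest for Dbp and 2.12 times for Per2, so the 2 intact samples differed more in these genes than the 3 castrated samples did. The reverse held for Arntl, Nr1d1 and Per3, with 2.26, 1.97 and 1.88 times between the highest and lowest castrated sample, against intact ratios of replicate 1 to replicate 2 of 0.552, 1.63 and 1.53. It also held for Clock (1.48 times among castrated samples, against an intact ratio of 0.786) and Nr1d2 (1.18 times, against 1.09).

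**Figure D3:**
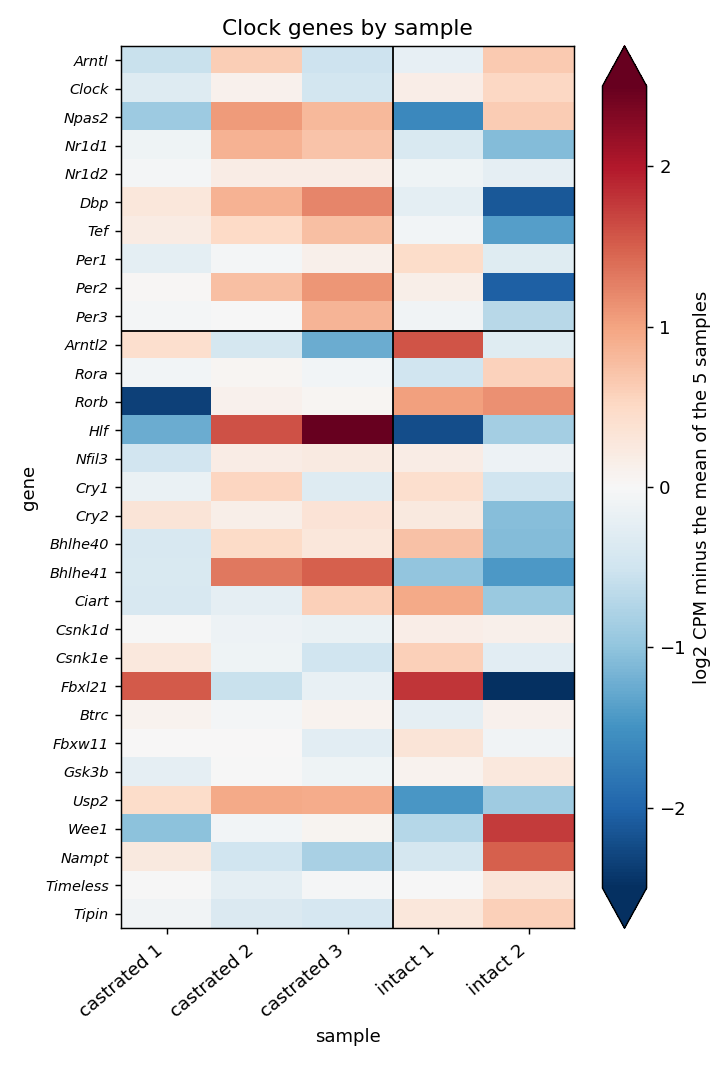
Log2 CPM minus the mean of the 5 samples, by gene (rows) and sample (columns), in red above and in blue below that mean, with the 10 clock genes above the horizontal line. Intact replicate 2 is blue for Nr1d1, Dbp, Tef, Per2 and Per3 and red for Arntl, Clock and Npas2, and castrated replicates 2 and 3 are red for Dbp, Tef and Per2.

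The ratio of 2 genes within a sample does not depend on how the libraries are scaled, and for genes of opposite phase it puts the samples in an order. The counts of Nr1d1 were 3.02, 2.62 and 5.19 times those of Arntl in castrated replicates 1, 2 and 3 and 1.94 and 0.658 times those of Arntl in intact replicates 1 and 2. All castrated samples were above both intact samples, and in intact replicate 2 alone Arntl had more counts than Nr1d1. For Dbp the same ratio was 1.95, 1.30 and 3.58 in the castrated and 1.06 and 0.157 in the intact samples. Again the groups did not overlap. The log2 ratio of Dbp to Arntl had a castrated mean of 1.06 ± 0.738 (SD, n = 3) and an intact mean of -1.30 ± 1.94 (SD, n = 2). The intact log2 ratios, 0.078 in replicate 1 and -2.67 in replicate 2, lay farther apart than the group means did. The ratios of Nr1d2, Tef, Per1, Per2 and Per3 to Arntl overlapped between the groups, with castrated replicate 2, the castrated sample with the most Arntl, below intact replicate 1 in each. Relative to Clock, Per2 counts were 0.187, 0.231 and 0.437 in the castrated and 0.145 and 0.0250 in the intact samples. These ratios are given without a test.

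**Figure D4:**
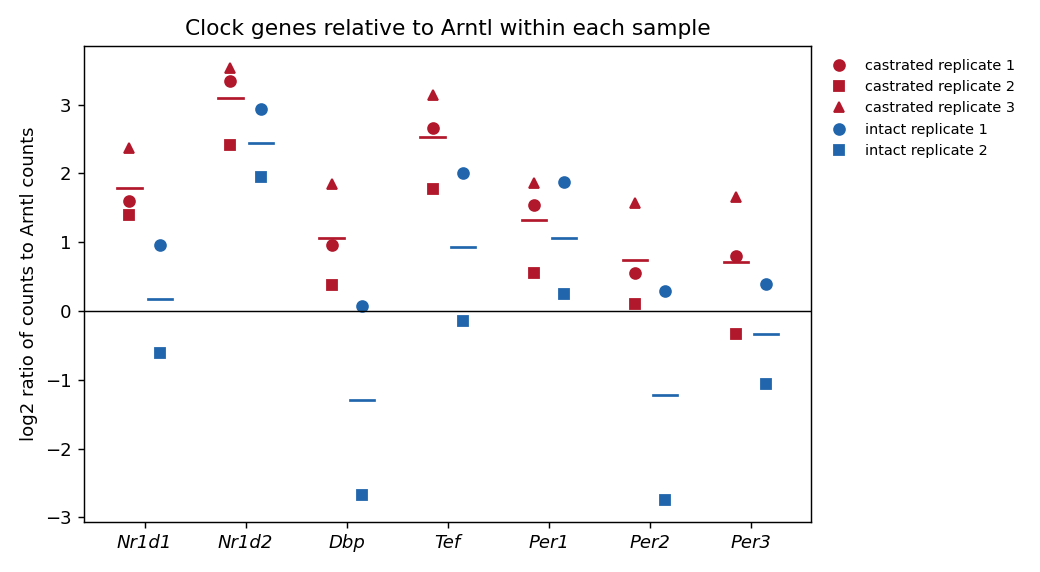
Log2 ratio of the counts of each clock gene to those of Arntl in the same sample (y axis), with castrated samples in red, intact samples in blue and a bar at each group mean. Castrated replicate 3 is the highest sample in 6 of the 7 ratios, intact replicate 1 being higher for Per1, and intact replicate 2 is the lowest in all 7.

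Levels between genes were compared as TPM, which divides counts by the deposited gene length. Nr1d2 had the highest TPM of the 10 in each of the 5 samples. Averaged over the 5 samples, Nr1d2 was at 75.1 TPM, followed by Tef at 45.8, Nr1d1 at 44.3 and Dbp at 41.4 TPM. Clock at 32.5, Per1 at 24.5 and Arntl at 17.3 TPM came next, and Per3 at 10.5, Per2 at 10.3 and Npas2 at 7.44 TPM were lowest. This order of means did not hold in the intact samples, where Clock, at 39.0 TPM in replicate 1 and 37.2 TPM in replicate 2, was above Nr1d1 (32.1 and 14.8 TPM) and Dbp (28.8 and 5.82 TPM), and in intact replicate 2 Dbp was also below Arntl and Per1. The neighbours Tef, Nr1d1 and Dbp differed by less than the spread of each over the samples, as did Per3 and Per2.

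Of 21 other genes of the clock pathway, all tested, 7 had a higher and 14 a lower mean in castrated samples, with a median log2 fold change of -0.23, and 0 were called by edgeR's quasi-likelihood or likelihood ratio test. DESeq2 called 3 of them, all higher, which were Usp2 (DESeq2 adjusted p = 0.0002002), Bhlhe41 (0.0138) and Hlf (0.0487), where it called 6.77% of all genes tested. Of all genes tested, 47.9% had a log2 fold change above 0. At an unadjusted p under 0.05, 2 of the 21 were higher and 1 lower, a share near the 14.2% of all genes tested. These 3 became 5 without castrated replicate 1 (15.9% of all genes in the same fit) and 8 without intact replicate 1 (22%), and 2 without castrated replicate 2, castrated replicate 3 or intact replicate 2. Usp2, a deubiquitinase whose transcript follows the clock in many tissues, was at 7.78, 10.8 and 10.8 CPM in castrated replicates 1, 2 and 3 and at 2.06 and 3.07 CPM in intact replicates 1 and 2. The groups were well apart, with a log2 fold change of 1.93 (SE 0.42, edgeR adjusted p = 0.320), and 2.20 without intact replicate 2. Bhlhe41, which encodes the E-box repressor DEC2, was at 39.3, 127 and 143 CPM in the castrated and at 25.63 and 19.01 CPM in the intact samples. Castrated replicate 1 was nearer to the intact samples than to the other castrated ones, and the log2 fold change was 2.21 (SE 0.62, edgeR adjusted p = 0.320), or 1.97 without intact replicate 2. Tipin, the partner of Timeless in replication fork protection, was at 17.5, 14.5 and 13.9 CPM in the castrated and at 22.7 and 28.3 CPM in the intact samples. Its groups did not overlap either (log2 fold change -0.74, SE 0.25, edgeR adjusted p = 0.334, and -0.61 without intact replicate 2), and that of Timeless itself was -0.24.

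Hlf, the third PAR bZIP gene, was at 2.76, 19.5 and 42.5 CPM in castrated replicates 1, 2 and 3 and at 1.39 and 3.58 CPM in intact replicates 1 and 2. Castrated replicate 1 lay between the intact samples, so Hlf did not separate the groups as Dbp and Tef did, and its log2 fold change of 3.12 had a standard error of 1.24 (edgeR adjusted p = 0.353), ranging from 2.17 without castrated replicate 3 to 3.91 without intact replicate 2. Nfil3, which encodes the repressor that competes with the PAR bZIP factors at D-boxes, had a log2 fold change of -0.03, turning to 0.07 on log2(TPM + 1). The Cryptochrome genes had log2 fold changes of 0.04 for Cry1 and 0.55 for Cry2, and Cry2 was lowest in intact replicate 2, at 19.8 CPM against 45.9 CPM or more in the other 4 samples. Without that sample the values were -0.40 for Cry1 and -0.0013 for Cry2. Bhlhe40 (DEC1) had a log2 fold change of 0.08 with an intact pair of 301 and 86.1 CPM on either side of all castrated samples. Ciart, a repressor of the BMAL1 pair, was at or below 7.93 CPM in every sample and had a log2 fold change of -0.23, turning to 0.06 on log2(TPM + 1).

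Rora and Rorb encode ROR activators, which oppose the REV-ERB receptors at the Arntl promoter. Rorb was lower in every castrated than in either intact sample, with a log2 fold change of -1.46 (edgeR adjusted p = 0.417) and -1.44 without intact replicate 2, and Rora had a log2 fold change of -0.16, turning to 0.06 on log2(TPM + 1). Arntl2, the paralog of Arntl, had a log2 fold change of -1.17, with 36.6 CPM in intact replicate 1 and 9.99 CPM in intact replicate 2. Genes that set the stability of PER and CRY proteins were not tested as a group. The casein kinases Csnk1d and Csnk1e had log2 fold changes of -0.24 and -0.30, Gsk3b of -0.28, and the ubiquitin ligase subunits Fbxw11 and Btrc of -0.20 and 0.09. Every castrated sample was below both intact samples for Csnk1d and Gsk3b. Fbxl21, the ligase subunit with the fewest counts, had a log2 fold change of -0.28 with a standard error of 1.27, and its direction turned with log2(TPM + 1), to 0.25. The output genes Wee1, a mitotic kinase, and Nampt, an NAD synthesis enzyme, had log2 fold changes of -1.25 and -1.11. Intact replicate 2 was by far the highest sample for both, with Wee1 at 115 CPM and Nampt at 572 CPM, and without it the log2 fold changes were 0.40 and 0.11.

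Other gene lists differed between the groups in the same libraries, and their part in the clock gene differences was not tested. Among all genes tested, 8.29% were higher and 5.93% lower in castrated samples at an unadjusted p under 0.05. A log2 fold change above 0 was held by 47.9%. All 9 adipocyte markers had a higher mean in castrated samples, 6 of them at an unadjusted p under 0.05, with summed levels of 54.1, 695 and 651 CPM in castrated replicates 1, 2 and 3 and 36.2 and 91.1 CPM in intact replicates 1 and 2. Fabp4 was the most abundant of them, Adipoq was at 0.523 CPM in castrated replicate 1 and at or below 0.0930 CPM in the intact samples, and Lep had no count in those 3 samples. Castrated replicate 1 was below intact replicate 2 for Fabp4 (37.0 against 52.0 CPM) and Lipe (13.7 against 38.3 CPM), and above it for Cfd (1.67 CPM against no count), Adipoq, Cidec, Plin1, Retn and Plin4. For Nr1d1, Bhlhe41 and Hlf, as for the summed adipocyte markers, castrated replicates 2 and 3 were well above the other 3 samples. The 7 smooth muscle markers were at 381, 687 and 622 CPM in the castrated and at 200 and 139 CPM in the intact samples in sum, 7 of 7 at an unadjusted p under 0.05, with Acta2 the most abundant and none of them at 0. The 8 macrophage markers were at 2597, 7327 and 2936 CPM against 1091 and 1661 CPM, 7 of 8 at an unadjusted p under 0.05, with Lyz2 the most abundant and none at 0. Endothelial markers overlapped in sum, at 395, 286 and 330 CPM against 433 and 179 CPM, with Cdh5 at 227 CPM in intact replicate 1, but 5 of 6 had a higher mean in castrated samples and 2, Kdr and Tek, were higher at an unadjusted p under 0.05. T cell markers overlapped too, at 12.9, 50.4 and 47.1 CPM against 3.36 and 33.9 CPM, with 0 of 6 at an unadjusted p under 0.05. The 7 proliferation genes were lower in every castrated sample, at 131, 184 and 189 CPM against 355 and 436 CPM in sum, and 6 of 7 passed an unadjusted p under 0.05. Skeletal muscle markers reached at most 1.34 CPM in sum in any library.

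Per1 is also known as a direct target of the glucocorticoid receptor and of cAMP signaling, so genes induced by glucocorticoids and immediate early genes were read beside it. The 6 glucocorticoid-induced genes (Tsc22d3, Fkbp5, Sgk1, Zbtb16, Klf9 and Ddit4) summed to 377, 536 and 483 CPM in castrated replicates 1, 2 and 3 and to 592 and 427 CPM in intact replicates 1 and 2, and 0 of 6 passed an unadjusted p under 0.05. Intact replicate 1 was the highest sample for this sum and for Per1. Of the 6 genes, Fkbp5, Klf9 and Ddit4 were highest in that sample, Tsc22d3 and Sgk1 in castrated replicate 2 and Zbtb16 in intact replicate 2. The 10 immediate early genes summed to 524, 814 and 675 CPM in the castrated and to 659 and 524 CPM in the intact samples, with 0 of 10 at an unadjusted p under 0.05. That threshold was passed by 14.2% of all genes tested.

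**Figure D5:**
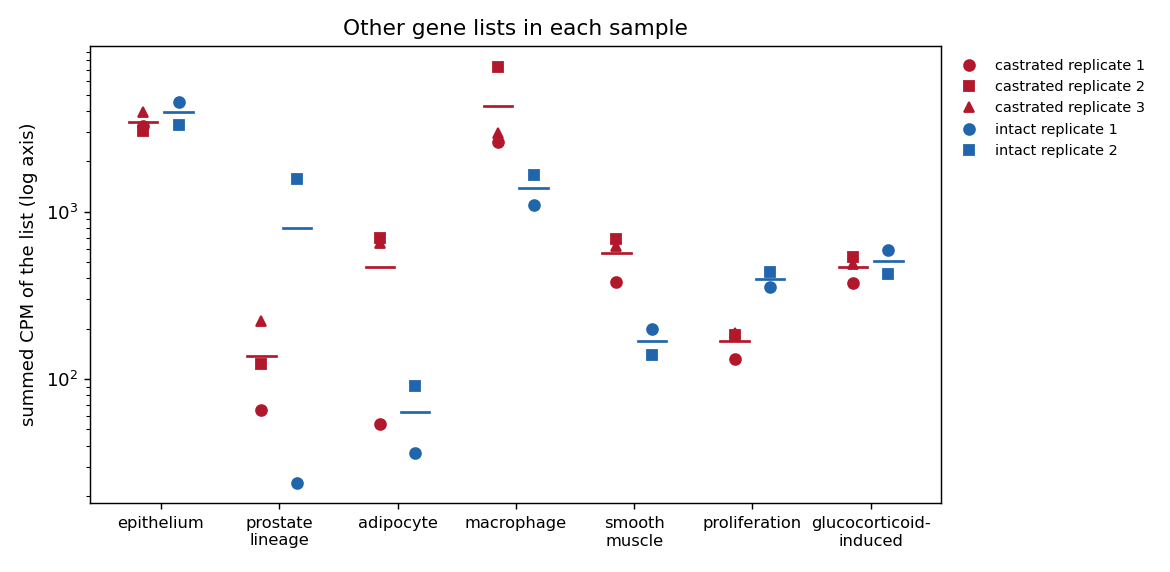
Summed CPM on a log axis of 7 other gene lists in each sample, with castrated samples in red, intact samples in blue and a bar at each group mean. The smooth muscle, macrophage and proliferation lists separate the groups, and the adipocyte list is high in castrated replicates 2 and 3 alone. In intact replicate 2 the prostate lineage list is highest, at 1574 CPM, of which Tgm4 alone held 1347 CPM.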

How the data were processed

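Bulk RNA-seq was measured in 3 castrated and 2 intact samples, grouped by their titles, each labelled as a separate replicate. The labels do not say that the replicates of a group came from separate mice, so p-values measure only the spread between these samples, which may be technical. The authors depleted ribosomal RNA, used Trimmomatic 0.39 for trimming of paired-end reads, STAR 2.7.9 for alignment to mm10 and HTSeq 2.0.2 for counting per gene, as their methods and processing notes state, and the deposited values are raw counts. The deposited gene length in kilobases, whose derivation is not given in the sources used here, was used only for TPM.

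The analysis ran in R 4.3.3 (edgeR 4.0.16, DESeq2 1.42.0, limma 3.58.1). Genes exceeding 1 CPM in 2 or more samples were tested by the quasi-likelihood F-test of edgeR after TMM scaling and Benjamini-Hochberg adjustment, following the test, filter and thresholds of the study's methods, except that counts were used in place of TPM. Standard errors were derived from the F statistic (absolute log2 fold change over its square root). The common dispersion was 0.238, so the spread between samples, more than counting error, limited precision. In simulated counts, 27 of 191 changed and 5 unchanged genes were called. Samples of a group differed by far more than sampling noise (chi-square per gene of 134 or more). The named genes were the 10 members, 21 other clock pathway genes and, outside all gene lists used here, the 5 genes nearest to Dbp in pattern. A few listed genes are not reported here. The members and gene lists were chosen with earlier results of these data known. Elements of the promoter windows and overlapping exons (GENCODE vM21) were matched by symbol. Alternatives were another test (DESeq2, the likelihood ratio test, limma voom), another scaling, another filter, log2(TPM + 1) as input, a fit without the 20 most counted genes, a replicate block, a prior count of 2, and leaving out each sample.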

Additional observations from a re-analysis of the deposited data

How the results depend on the processing

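With 2 intact samples, the precision of every difference rests on the spread between samples, which depth does not reduce. The count of called genes, 0 in edgeR's quasi-likelihood test (2079 at an unadjusted p under 0.05, 1212 higher and 867 lower), was 989 with DESeq2 (703 higher, 286 lower) and 369 (276 higher, 93 lower) with edgeR's likelihood ratio test. It was 0 under every other scaling, filter, input or test that was run, and between 0 and 1 (Coch, lower) when each sample was left out. None of the 10 clock genes had an adjusted p under 0.05 in any of 17 alternatives. The smallest was 0.0812 for Nr1d1 with DESeq2, within a range from 0.0812 to 0.795 for that gene. The number of all genes at an unadjusted p under 0.05 ranged from 930 to 3181 when each sample was left out, and that of clock genes from 0 to 4. Same-numbered samples come from a castrated and an intact animal and share only a number, their deviations from the group means having correlations of 0.149 and -0.045. In a fit with that number as replicate block, 940 genes (708 higher, 232 lower) and 0 clock genes passed an unadjusted p under 0.05, and Dbp had a log2 fold change of 1.75. Nr1d1 and Dbp each passed an unadjusted p under 0.05 in 13 of 17 alternatives.

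With log2(TPM + 1) in limma, which moved the median of all genes from -0.03 to 0.12 and split the genes at an unadjusted p under 0.05 into 1323 higher and 516 lower, log2 fold changes reversed to 0.0005 for Per1, 0.061 for Rora, 0.0724 for Nfil3, 0.0551 for Ciart and 0.25 for Fbxl21. That of Fbxl21 also reversed to 0.71 with limma voom and 0.81 with the replicate block, in which that of Hlf was 1.74. Across the fits that each left out a sample, log2 fold changes crossed 0 for Arntl (-0.82 to 0.11), Npas2 (-0.0809 to 2.11), Per1 (-0.55 to 0.29), Arntl2 (-1.86 to 0.0711), Rora (-0.57 to 0.43), Nfil3 (-0.22 to 0.16), Cry1 (-0.40 to 0.59), Cry2 (-0.0013 to 1.35), Bhlhe40 (-0.60 to 1.27), Ciart (-0.92 to 1.0009), Csnk1e (-0.71 to 0.20), Fbxl21 (-1.25 to 3.16), Btrc (-0.0503 to 0.22), Fbxw11 (-0.43 to 0.0413), Wee1 (-1.99 to 0.40) and Nampt (-1.75 to 0.11). The cause of these shifts was not tested. The direction of Clock, Nr1d1, Nr1d2, Dbp, Tef, Per2 and Per3 was the same under every alternative run, with log2 fold changes from 0.89 to 1.66 for Nr1d1, from 1.03 to 2.98 for Dbp, from 0.54 to 1.90 for Tef and from 0.51 to 2.76 for Per2.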

Other observations

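Outside all gene lists used here, the 5 tested genes whose pattern over the 5 samples was nearest to that of Dbp were Dnm1, Sparcl1, Larp6, Ebf1 and Prom1. The cell type markers and other listed genes were thus left out of the search, as were the clock genes. Likeness was the root-mean-square difference of log2 CPM (with 0.5 added) centred on each gene's mean, and it was between 0.126 and 0.178. These 5 genes were named for this likeness, which is a description of 5 samples and carries no test. Sparcl1, which encodes an extracellular matrix glycoprotein, was at 361, 656 and 826 CPM in castrated replicates 1, 2 and 3 and at 248 and 72.4 CPM in intact replicates 1 and 2. Ebf1, a transcription factor known from B cells and fat cell precursors, was at 19.4, 39.0 and 37.6 CPM in the castrated and at 14.2 and 4.28 CPM in the intact samples. Prom1, which encodes the membrane protein CD133, was at 97.9, 148 and 189 CPM against 94.8 and 22.7 CPM. As in Dbp, intact replicate 2 was the lowest and castrated replicate 1 the lowest of the castrated samples in each.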
